A study of Mus musculus with 12 samples.

Results

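Rab GTPases are small membrane-bound switches that direct vesicle traffic inside cells. Every ATAC-seq peak whose annotated gene symbol is Rab followed by a number and at most a letter and a digit was taken, which gave 342 of 139999 peaks and 58 of 19395 genes. A Rab gene had a median of 5 peaks, with a range of 1 to 18, and Rab31 and Rab2a had the most. All 342 peaks are 400 bp wide. ATAC-seq counts fragments cut by the Tn5 transposase, so a high level at a peak means that the DNA there was accessible; it does not measure RNA or protein.

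The cells were bone marrow derived macrophages of male C57BL/6J mice aged 8 weeks, and 12 libraries fall into 6 groups of 2. In the first phase the groups are diabetic and healthy cells. In the rest phase they are diabetic-trained and untrained cells after 7 days with M-CSF, the macrophage growth factor, in 5 mmol/L glucose. The second phase has diabetic-trained and untrained cells that were then given IFN-γ at 10 ng/mL and LPS at 100 ng/mL for 16 hours. Diabetic mice had received streptozotocin, which destroys insulin-producing cells, at 42 to 45 mg/kg daily for 5 days, had passed 16.9 mmol/L blood glucose and had spent 6 weeks hyperglycaemic. No label gives the time at which cells of the first phase were taken, or ties the paired libraries to different mice. The p-values below therefore reflect variation from library to library, and that variation may be technical.

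A Rab protein alternates between a GTP-bound form, which recruits effectors such as tethers and motors, and a GDP-bound form. Exchange factors (GEFs) load GTP, GTPase-activating proteins (GAPs) end the signal, and the GDP dissociation inhibitors (GDIs) carry the prenylated protein between membranes. In macrophages Rab proteins set how phagosomes mature, how receptors are recycled and how granules and cytokines leave the cell.

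The deposited tables give group means without naming the groups. The mean columns are therefore called A and B within each phase, and A of one phase need not be A of another. The reads behind the means were recovered for every library, and these held 3832347 to 18617444 reads in peaks. Libraries are numbered A1, A2, B1 and B2 in each phase, and per-library values below follow that order. In each group, library 1 is the one whose single read counts for less in the deposited mean. These numbers are not the labels' replicate numbers. A level is the log2 of quantile-scaled reads per 10000000 reads in peaks plus 1. Low levels rest on few reads, which are given below for some named peaks. Libraries A1 and A2 of the first phase differed by little more than sampling noise and count as 1 sample in the comparisons between phases, so n = 4 rest-phase and n = 3 first-phase samples. Second-phase libraries differ within both groups, as shown with the stimulation results.

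The promoters printed here belong to start peaks that differed between the rest and first phases. They comprise the 3 that rose (Rab3c, Rab39 and Rab5a), of which Rab39 and Rab5a passed under quantile scaling alone and Rab5a turned direction with total-read scaling, and the 3 largest falls (Rab23, Rab15 and Rab6b) among RefSeq windows that overlap the start peak. Each runs 5′ to 3′ on the gene's strand, from 250 bases before to 50 after the RefSeq start (GRCm38.p6). Capitals mark the E-box CACGTG, the CCAAT box (CCAAT or ATTGG) and the GC box (GGGCGG or CCGCCC), searched on both strands; no match shares a base with a match of another kind in these 6.
Rab3c promoter, chr13:110280157-110280456, minus strand, start peak rose: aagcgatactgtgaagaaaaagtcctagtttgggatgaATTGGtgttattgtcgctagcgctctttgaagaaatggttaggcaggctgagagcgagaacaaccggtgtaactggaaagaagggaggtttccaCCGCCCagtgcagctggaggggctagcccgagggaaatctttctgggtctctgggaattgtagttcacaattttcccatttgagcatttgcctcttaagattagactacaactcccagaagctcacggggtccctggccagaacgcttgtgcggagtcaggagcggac
Rab39 promoter, chr9:53706183-53706482, minus strand, start peak rose: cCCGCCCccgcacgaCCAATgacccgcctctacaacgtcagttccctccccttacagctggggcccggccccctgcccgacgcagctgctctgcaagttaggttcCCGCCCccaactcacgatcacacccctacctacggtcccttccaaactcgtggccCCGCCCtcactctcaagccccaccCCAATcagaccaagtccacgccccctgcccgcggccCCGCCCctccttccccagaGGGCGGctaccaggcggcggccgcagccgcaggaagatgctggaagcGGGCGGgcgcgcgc
Rab5a promoter, chr17:53478984-53479283, plus strand, start peak rose: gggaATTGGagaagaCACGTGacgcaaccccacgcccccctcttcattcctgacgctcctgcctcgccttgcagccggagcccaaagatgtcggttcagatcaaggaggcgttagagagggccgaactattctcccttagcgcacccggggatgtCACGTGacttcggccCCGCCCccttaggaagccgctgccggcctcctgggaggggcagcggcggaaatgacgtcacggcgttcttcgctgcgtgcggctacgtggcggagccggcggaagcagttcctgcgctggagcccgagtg
Rab23 promoter, chr1:33719646-33719945, plus strand, start peak fell: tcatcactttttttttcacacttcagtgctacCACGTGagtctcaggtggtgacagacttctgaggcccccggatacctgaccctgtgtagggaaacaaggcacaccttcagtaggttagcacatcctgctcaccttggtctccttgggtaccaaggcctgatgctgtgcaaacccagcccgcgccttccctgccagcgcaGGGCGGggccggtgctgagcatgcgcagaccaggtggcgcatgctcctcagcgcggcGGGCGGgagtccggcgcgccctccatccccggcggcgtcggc
Rab15 promoter, chr12:76822475-76822774, minus strand, start peak fell: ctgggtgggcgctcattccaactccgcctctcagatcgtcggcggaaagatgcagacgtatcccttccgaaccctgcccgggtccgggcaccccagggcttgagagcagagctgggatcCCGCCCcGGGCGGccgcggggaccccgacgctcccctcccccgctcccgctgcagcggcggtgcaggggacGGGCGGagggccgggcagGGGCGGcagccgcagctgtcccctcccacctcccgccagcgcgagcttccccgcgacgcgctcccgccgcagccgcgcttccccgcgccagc
Rab6b promoter, chr9:103111824-103112123, plus strand, start peak fell: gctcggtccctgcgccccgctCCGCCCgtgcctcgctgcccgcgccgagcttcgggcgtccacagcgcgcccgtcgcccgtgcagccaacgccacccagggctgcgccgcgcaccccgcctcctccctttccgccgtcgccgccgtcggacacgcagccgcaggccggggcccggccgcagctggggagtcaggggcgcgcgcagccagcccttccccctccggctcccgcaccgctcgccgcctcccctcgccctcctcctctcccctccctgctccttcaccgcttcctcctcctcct

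Among 38 Rab promoters that overlap their start peak, 29 held a GC box (76.3%, against 35.7% of 32851 mouse promoters of the same length) and 21 held a CCAAT box (55.3%, against 37.4%). Their median GC content was 62.3%, against 52.7% over all promoters. Only the Rab promoters were chosen for overlap with a peak, so these shares and those below compare unlike sets. The differences are not shown to be traits of Rab genes. The GC box was in 3 of 3 promoters whose start peak rose, in 12 of 14 whose start peak fell and in 14 of 21 that did not pass. An E-box was in 5 Rab promoters (13.2%, against 7.15%). Rarer than over all promoters were matches of AP-1 (5.26%, against 7.81%), C/EBP (7.89%, against 10.8%) and the interferon element ISRE (0%, against 3.44%). Matches of PU.1 (5.26%, against 3.2%), ETS (5.26%, against 3.89%), the ETS core GGAAG (78.9%, against 71.4%) and NRF1 (7.89%, against 4.6%) were more frequent. Apart from the ETS core, each of these was in 0 to 3 Rab promoters. The longer palindrome GTCACGTGAC, which is the second Rab5a E-box with 2 bases on either side and is known as a binding sequence of the lysosomal regulator TFEB, was searched after it was seen in the Rab5a promoter. It was in 3 of the 38 (7.89%, against 0.326%), namely Rab21, Rab24 and Rab5a. These matches describe letters in the window and not binding.

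Between the rest and first phases, Rab peaks changed in both directions. Of 342 Rab peaks 67 rose, 60 fell and 215 did not pass (limma, Benjamini-Hochberg adjusted p under 0.05). That is 37.1% of Rab peaks, against 38.6% of all peaks tested, of which 19.7% rose and 18.9% fell. The share is near the background. The median Rab log2 fold was 0.04, against 0.02 over all peaks. At the gene level, 41 of 58 Rab genes had a called peak: 11 with rises alone, 13 with falls alone and 17 with both. That is 70.7% of Rab genes, against 77% of 19377 genes with a tested peak, of which 21.9% had rises alone, 24.5% falls alone and 30.6% both.

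The split into rises and falls moves with the scaling. Scaled to total reads in peaks, 93 Rab peaks rose and 54 fell (39.8% of all peaks called, 26.4% higher and 13.4% lower), with a median of 0.30 for Rab peaks and 0.29 for all peaks. With the authors' scaling of each table, 82 rose and 11 fell (28.5% of all peaks called, 23.5% higher and 5% lower), with a median of 0.74 for both Rab peaks and all peaks. Changes below are relative to quantile scaling, and the 16 peaks named for size kept their direction under all 3 scalings, each passing under all 3 except a Rab8a peak given below.

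Markers of cell types moved between the same phases. Of 72 peaks at 8 macrophage genes 33 rose and 5 fell, and their mean log2 level ranged over 5.75 to 6.02 in rest-phase libraries and 5.09 to 5.38 in first-phase libraries. At 8 neutrophil genes 0 of 47 peaks rose and 38 fell, with mean levels of 4.18 to 4.64 in rest-phase and 6.30 to 7.25 in first-phase libraries. At 6 B cell genes 4 of 56 peaks rose and 32 fell, with mean levels of 3.90 to 4.43 in rest-phase and 4.90 to 6.15 in first-phase libraries. T and NK cell genes had 6 rises and 10 falls in 33 peaks, erythroid and megakaryocyte genes 3 and 17 in 36, dendritic cell genes 5 and 13 in 39, and stromal genes 7 and 18 in 78. The part of these cells in the Rab changes was not tested. In bulk libraries fewer cells of a type and less signal per cell cannot be told apart.

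**Figure D1:**
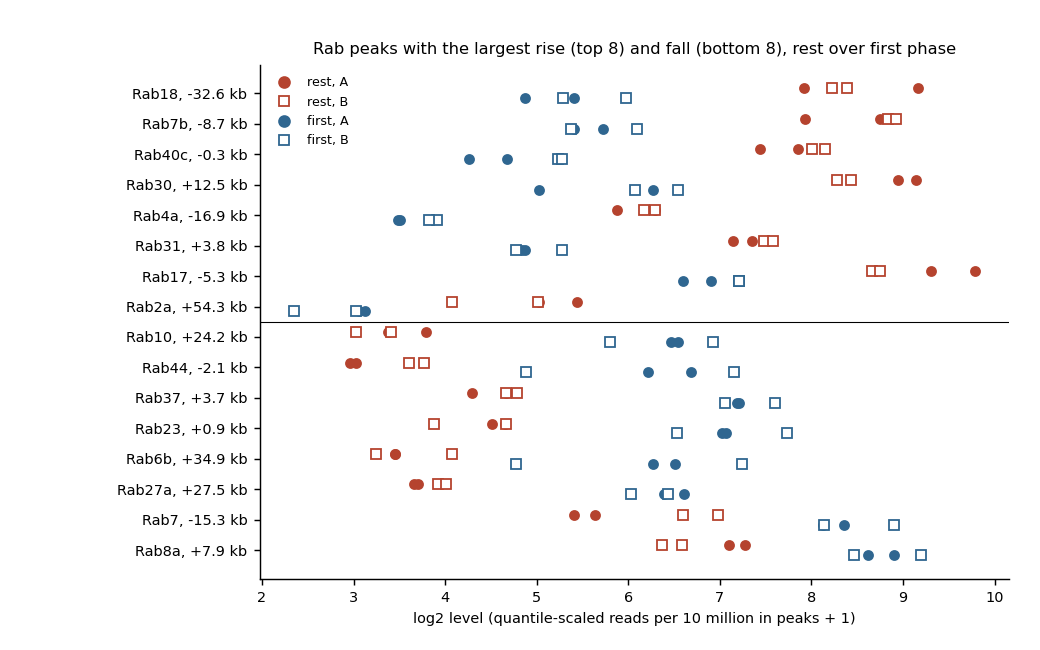
Log2 level of the 8 Rab peaks with the largest rise and the 8 with the largest fall, 1 point per library (rest phase red, first phase blue, group A filled, group B open). Labels give the distance to the nearest annotated start, and in each of the 16 peaks the rest-phase and first-phase libraries do not overlap.

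Late endosome, lysosome and autophagy genes had 18 rises and 9 falls in 68 peaks of 13 genes, with a median log2 fold of 0.27. The share called was 39.7%, against 38.6% of all peaks, and rises and falls numbered 25 and 7 with total-read scaling and 22 and 2 with the authors' scaling. Rab7b, which carries endosomes towards lysosomes and the Golgi and is known to dampen Toll-like receptor signals in macrophages, had 8 of 13 peaks higher and 0 lower. At its distal peak 8682 bp before the start (mm10 chr1:131679614-131680013) the levels were 8.75, 7.93, 8.83 and 8.93 in the rest phase, against 5.73, 5.41, 6.10 and 5.37 in the first phase. All rest-phase libraries lay above all first-phase libraries, and the log2 fold was 3.04 ± 0.28 (SE, limma adjusted p = 3.58e-06). An intronic Rab7b peak 6828 bp after the start rose by 2.99 ± 0.21 (adjusted p = 6.18e-07), with 9.16, 8.94, 8.63 and 9.02 in the rest phase, against 6.21, 6.05, 5.92 and 6.20 in the first phase. Its start peak rose as well, by 1.78 ± 0.24. Rises numbered 8 and falls 0 with the authors' scaling, and 11 and 0 with scaling to total reads.

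Rab7, the main Rab of late endosomes and lysosomes, differed from Rab7b in that 3 of its 13 peaks rose and 6 fell. The start peak had 7.87, 8.09, 8.64 and 8.44 in the rest phase, against 9.03, 9.01, 8.97 and 9.16 in the first phase, with no overlap (log2 fold −0.84 ± 0.21, limma adjusted p = 0.00582). A distal peak 15337 bp before the start (chr6:88060607-88061006) fell by 2.38 ± 0.36, with 5.64, 5.41, 6.98 and 6.60 in the rest phase, against 8.12, 8.36, 8.14 and 8.90 in the first phase. Other peaks went the other way: 11576 bp before the start the log2 fold was 1.92 ± 0.34, and in an intron 11113 bp after it 1.83 ± 0.26. At Rab7 3 peaks rose and 1 fell with the authors' scaling.

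Among the other genes of this group, Rab12 had 4 of 9 peaks higher and 0 lower, and Rab33b had 0 of 4 higher and 2 lower. Rab39, which acts on phagosomes, had a start peak at 9.15, 8.77, 9.08 and 9.27 in the rest phase, against 8.41, 8.33, 8.59 and 7.87 in the first phase (log2 fold 0.84 ± 0.21, limma adjusted p = 0.00576). That rise did not pass with total-read scaling (0.49, adjusted p = 0.153) or the authors' scaling (0.95, adjusted p = 0.203). Rab24, an autophagy Rab, has 1 peak, at its start, which fell by 1.26 ± 0.19 (adjusted p = 0.00017): 7.04, 7.29, 7.18 and 7.04 in the rest phase against 8.30, 8.33, 8.34 and 8.31 in the first phase. The Rab24 fall did not pass with the authors' scaling (−0.70, adjusted p = 0.457). None of the 4 peaks of Rab32 or the 2 of Rab34, both active on phagosomes, passed, and 1 of the 11 of Rab38, a Rab of lysosome-related organelles, rose.

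Early endosome and recycling genes had 17 rises and 14 falls in 90 peaks of 16 genes (34.4% called), with a median log2 fold of −0.02. The counts were 22 and 13 with total-read scaling and 19 and 0 with the authors' scaling. Rab31, which moves cargo from the Golgi to endosomes, had 3 of 18 peaks higher and 6 lower, and its start peak did not pass (−0.40 ± 0.26). An intronic peak 3802 bp after the start (chr17:65768439-65768838) had 7.35, 7.15, 7.48 and 7.58 in the rest phase, against 4.84, 4.87, 4.77 and 5.28 in the first phase (log2 fold 2.45 ± 0.25, limma adjusted p = 6.68e-06). Further into the gene, 31091 bp from the start, a peak fell by 2.03 ± 0.29. Under quantile scaling single Rab31 elements thus moved in opposite directions within the gene. Rab31 rises and falls numbered 4 and 4 with total-read scaling, but 3 and 0 with the authors' scaling.

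The 3 Rab5 genes direct fusion of early endosomes. The start peaks of Rab5b and Rab5a had median levels over 12 libraries of 10.4 and 9.93. Rab5c has a peak over each of 2 annotated starts, with medians of 9.89 at chr11:100738089-100738488, which overlies its RefSeq start, and 3.76 at chr11:100730046-100730445. Rab5a rose by 0.35 ± 0.13 (adjusted p = 0.0471, limma), with 9.99, 10.15, 10.14 and 10.09 in the rest phase, against 9.74, 9.78, 9.83 and 9.66 in the first phase. With total-read scaling its log2 fold was −0.47 (adjusted p = 0.113), so its direction depends on the scaling. Rab11a and Rab14 fell at their start under quantile scaling, and neither passed with the authors' scaling (adjusted p = 0.286 for Rab11a and 0.0935 for Rab14). Rab11a, the slow recycling Rab, had 7.14, 7.54, 8.76 and 8.78 in the rest phase, against 8.99, 9.16, 9.01 and 9.13 in the first phase (−1.08 ± 0.36, adjusted p = 0.0266), and Rab14, a Golgi to endosome Rab, had a log2 fold of −0.73 ± 0.23 (adjusted p = 0.0206).

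Rab4a, the fast recycling Rab, has 14 peaks, of which 3 rose and 1 fell. The largest rise lay 16872 bp before its start (chr8:123788714-123789113), with a log2 fold of 2.47 ± 0.29 (limma adjusted p = 1.93e-05). Levels there were 6.29, 5.88, 6.17 and 6.30 in the rest phase, against 3.49, 3.51, 3.91 and 3.82 in the first phase. The first-phase levels come from only 3, 3, 10 and 9 reads. The authors' annotation places this peak and 8 more of the 14 in an intron of a transcript assigned to Galnt2, and 15 of 139 Rab peaks in an intron or exon with a gene ID lie in one of another gene. Of those 15, 9 are these Rab4a peaks, and their assignment to Galnt2 is uncertain because RefSeq places that gene elsewhere on the chromosome. Rab17, an epithelial recycling Rab, had a peak 5283 bp before its start (chr1:90974944-90975343) with 9.78, 9.31, 8.66 and 8.75 in the rest phase, against 6.60, 6.90, 7.20 and 7.21 in the first phase (2.19 ± 0.27). Rab20, a phagosome Rab that interferon induces in macrophages, had 0 of 3 peaks called.

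Endoplasmic reticulum and Golgi genes had 19 rises and 10 falls in 89 peaks of 15 genes (32.6% called), with a median log2 fold of 0.16. The counts were 27 and 13 with total-read scaling and 26 and 1 with the authors' scaling. The largest Rab rise of all was at Rab18, a Rab of lipid droplets and the endoplasmic reticulum, 32578 bp before its start. Its levels there were 9.16, 7.92, 8.39 and 8.22 in the rest phase, against 5.40, 4.87, 5.29 and 5.97 in the first phase (3.05 ± 0.31, limma adjusted p = 6.55e-06). Rab40c, which joins a ubiquitin ligase, rose at a promoter of an alternative transcript (chr17:25913909-25914308), with 7.85, 7.44, 8.01 and 8.14 in the rest phase, against 4.26, 4.68, 5.23 and 5.28 in the first phase (2.93 ± 0.28). Its peak nearest to a start, 55 bp before it, held the highest median of all Rab start peaks, 10.9, and a log2 fold of 0.00 ± 0.11.

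Rab30, a Golgi Rab, rose at an intronic peak 12496 bp after its start (chr7:92832416-92832815), with 9.14, 8.94, 8.43 and 8.27 in the rest phase, against 6.27, 5.02, 6.07 and 6.54 in the first phase (2.69 ± 0.27, limma adjusted p = 5.79e-06). The Rab30 peak nearest to its start, 2307 bp before it, fell by 1.75 ± 0.33. Rab2a, which acts between endoplasmic reticulum and Golgi, rose 54345 bp after its start (2.17 ± 0.38). Its levels there were 5.02, 5.44, 4.08 and 5.02 in the rest phase, against 3.05, 3.13, 3.03 and 2.35 in the first phase. These first-phase levels come from only 2, 2, 5 and 3 reads. Rab6b, a Golgi Rab known from neurons, fell in an intron 34926 bp after its start, with 3.46, 3.46, 4.08 and 3.25 in the rest phase, against 6.27, 6.51, 7.24 and 4.77 in the first phase (−2.58 ± 0.47). First-phase library B2 was the lowest of its phase at Rab6b, as at Rab44 below, and no rest-phase library reached it.

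Secretion and plasma membrane genes had 13 rises and 27 falls in 95 peaks of 14 genes (42.1% called), with a median log2 fold of −0.24. With total-read scaling the counts were 19 and 21, and with the authors' scaling 15 and 8, so the excess of falls depends on the scaling. Rab27a, which docks granules for exocytosis, had 0 of 6 peaks higher and 4 lower. Its peak 27539 bp after the start (chr9:73072523-73072922) was at 3.70, 3.66, 3.92 and 4.01 in the rest phase, against 6.39, 6.61, 6.03 and 6.44 in the first phase (−2.50 ± 0.28, limma adjusted p = 1.56e-05). The peak nearest to the Rab27a start had 6.34, 6.76, 6.84 and 6.68 in the rest phase, against 7.96, 8.02, 7.80 and 8.54 in the first phase (−1.54 ± 0.25).

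Rab37, a granule Rab known from mast cells, had 0 of 11 peaks higher and 4 lower. An exonic peak 3665 bp after its start (chr11:115157868-115158267) was at 4.29, 4.67, 4.78 and 4.67 in the rest phase, against 7.18, 7.21, 7.05 and 7.60 in the first phase (−2.71 ± 0.27, limma adjusted p = 5.72e-06). The start peak fell by 1.75 ± 0.22. Rab44, a large granule Rab, fell 2055 bp before its start (chr17:29143265-29143664), with a log2 fold of −2.83 ± 0.46. Levels there were 2.96, 3.03, 3.60 and 3.77 in the rest phase, against 6.21, 6.69, 7.15 and 4.88 in the first phase. The rest-phase levels come from only 7, 7, 9 and 10 reads. At both Rab27a and Rab37, 1 peak fell and 0 rose with the authors' scaling.

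Rab10, which takes Glut4 and Toll-like receptor 4 to the plasma membrane, had the largest fall of all, in an intron 24160 bp after its start (chr12:3285410-3285809). Levels there were 3.38, 3.79, 3.41 and 3.03 in the rest phase, against 6.55, 6.46, 6.93 and 5.80 in the first phase (−3.00 ± 0.34, limma adjusted p = 1.5e-05), while 3 of its 11 peaks rose and 3 fell. Rab23, which limits Hedgehog signalling, fell 856 bp from an annotated start (−2.70 ± 0.33), with 4.66, 4.52, 4.66 and 3.88 in the rest phase, against 7.03, 7.07, 6.53 and 7.74 in the first phase. Rab8a, an exocytosis Rab, fell at 7873 bp after its start (−2.09 ± 0.27, adjusted p = 4.09e-05), with 7.10, 7.27, 6.37 and 6.59 in the rest phase, against 8.90, 8.62, 8.47 and 9.20 in the first phase. With the authors' scaling this Rab8a fall did not pass (−1.63, adjusted p = 0.054).

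Rab8b, the close relative of Rab8a, had 5 of 13 peaks higher and 4 lower, arranged by position. The falls lay at the start and 3911 to 23230 bp after it, and the 5 rises 32489 to 41899 bp after it. At 32489 bp the levels were 9.69, 9.20, 8.94 and 8.95 in the rest phase, against 7.61, 7.48, 7.33 and 7.52 in the first phase (1.84 ± 0.21, limma adjusted p = 1.79e-05). The start peak had 8.76, 8.97, 8.89 and 8.81 in the rest phase, against 9.50, 9.59, 9.43 and 9.43 in the first phase (−0.64 ± 0.15). The authors' scaling gave 5 rises and 0 falls at Rab8b.

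**Figure D2:**
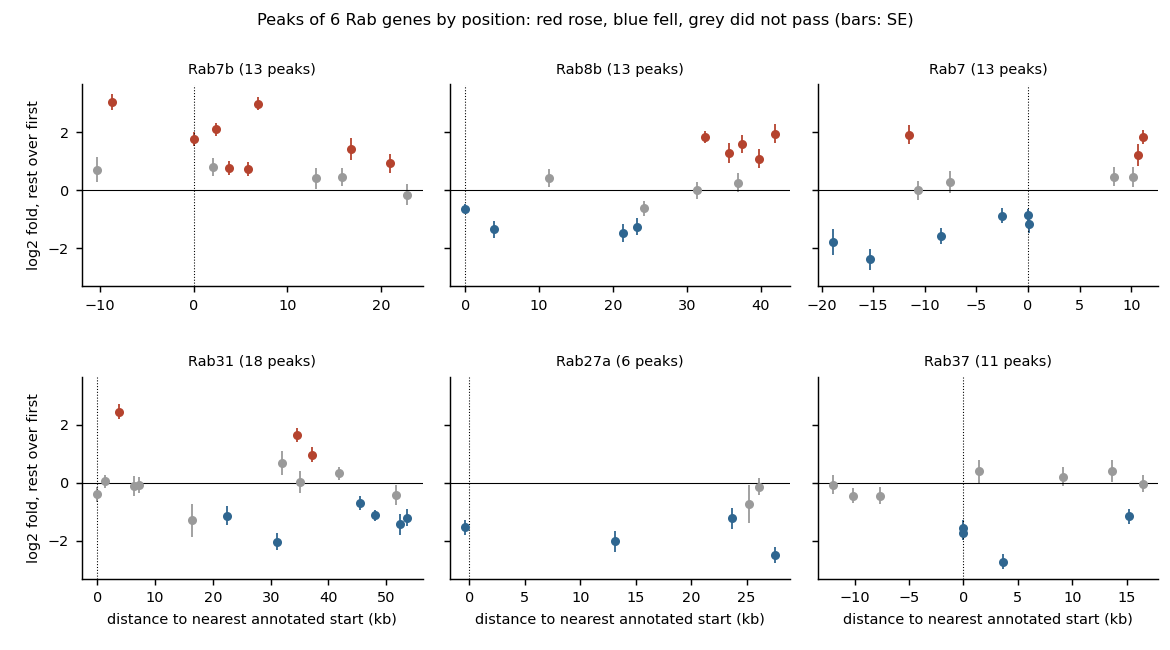
Log2 fold, rest over first phase (limma, quantile scaling; bars are SE), of every peak of 6 Rab genes against its distance to the nearest annotated start, in kb. Rab7b holds 8 rises and 0 falls, Rab27a and Rab37 hold 4 falls each and 0 rises, and Rab8b, Rab7 and Rab31 hold both.

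Start peaks fell more often than they rose under quantile scaling. The peak nearest to each gene's start overlies it in 47 genes and lies within 1 kb in 50; 4 of the 58 rose, 21 fell and 33 did not pass (limma). Promoter peaks within 1 kb did so in the whole table too: 11 of 76 Rab promoter peaks rose and 24 fell, 46.1% in all, against 44.5% of all promoter peaks (12.3% higher and 32.2% lower). With total-read scaling 6 start peaks rose and 27 fell, but with the authors' scaling 5 rose and 1, Rab8a, fell, so that none of the 21 falls passed there. In 6 genes several peaks overlie annotated starts, and taking the highest of them, a choice made after the data were seen, gave 6 rises and 20 falls. At Rab15 the printed start fell by 1.47 ± 0.31 while a second annotated start (chr12:76813557-76813956) rose by 1.75 ± 0.33 (limma adjusted p = 0.000794). Leaving out a first-phase or rest-phase library gave 2 to 4 rises and 13 to 23 falls, the fewest falls, 13, without group A of the first phase. Intronic Rab peaks had 30 rises and 22 falls in 135, or 22.2% and 16.3%, close to 22% and 15.5% of all intronic peaks. Distal intergenic Rab peaks had 13 and 5 in 64, or 20.3% and 7.81%, against 21.2% and 15.7% of all distal peaks.

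By the peak nearest to an annotated start, the 5 highest were those of Rab40c, Rab8a, Rab5b, Rab1a and Rab11b, with medians over 12 libraries of 10.9, 10.8, 10.4, 10.3 and 10.1, and none of the 5 passed between phases under quantile scaling. All 5 fell with total-read scaling, by 0.92 to 1.22 on the log2 scale, and Rab8a also with the authors' scaling (−0.74, adjusted p = 0.0493). All are 400 bp peaks, so their levels can be set side by side. The libraries of neighbours in this order overlap, except that every Rab8a level lies above every Rab5b level. The 5 lowest by the same rule were Rab9b, Rab5c, Rab39b, Rab22a and Rab33a, with medians of 3.26 to 4.15. They do not rank accessibility at the starts themselves, since the Rab9b peak is distal (26976 bp before the start), the Rab22a peak lies in an intron 6537 bp after it and Rab5c has the higher peak over its RefSeq start. None of these 5 passed under quantile or total-read scaling, while Rab33a, Rab22a and Rab9b rose with the authors' scaling (adjusted p = 0.0112, 0.0454 and 0.0488, limma).

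**Figure D3:**
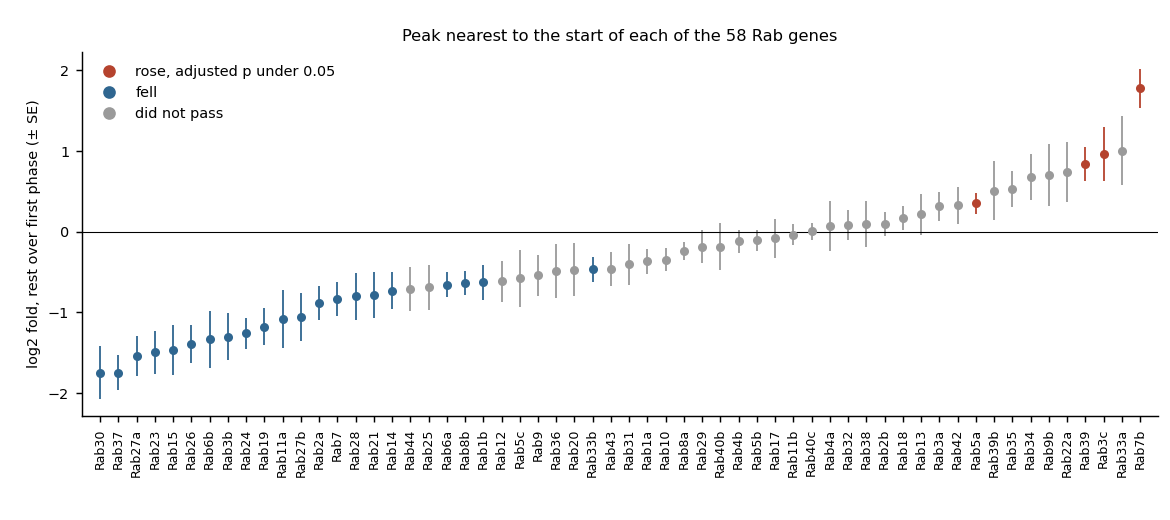
Log2 fold, rest over first phase (limma, quantile scaling; bars are SE, n = 4 and 3), at the peak nearest to the start of each of 58 Rab genes in rising order. Red points rose (4), blue fell (21) and grey did not pass (33); with the authors' scaling 5 rose and 1 fell.

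Genes that act on Rab proteins also changed in both directions. Of 33 peaks at 8 prenylation and GDI genes 4 rose and 13 fell. Exchange factors had 64 rises and 105 falls in 399 peaks, and GAPs 97 and 129 in 558. Effectors had 103 and 102 in 475, and tethering complexes 58 and 43 in 263. The shares called were 38.4% to 51.5% across these 5 lists, against 38.6% of all peaks. The largest called peaks included a Dennd1a intron (4.41 ± 0.31), an exchange factor gene for Rab35, with 7.23, 7.57, 7.65 and 7.72 in the rest phase, against 3.49, 3.13, 3.79 and 2.66 in the first phase. At the other end stood a peak nearest to Eea1, the Rab5 tether, though 160433 bp before its start (−4.64 ± 0.36).

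All 4 second-phase libraries are labelled as given IFN-γ and LPS, but A1 and B1 had levels near the rest phase at 4 genes of that response, described below. The reason was not tested, and the comparison of 4 with 4 libraries takes the labels as given. It thus pools libraries with high levels and libraries with near-rest levels at these genes. No Rab peak passed against the rest phase. Of 342 Rab peaks 0 rose and 0 fell (limma, n = 4 and 4, smallest adjusted p = 0.42), as did 0 of all 139557 peaks (0%). Leaving out A1 or B1 in turn also gave 0, but each of those fits still held the other, and no fit left out both. These fits therefore cannot show how A1 and B1 together bear on the counts. At an unadjusted p under 0.05 there were 43 Rab peaks (12.6%) and 16044 of all peaks (11.5%). With the authors' scaling 1 Rab peak passed (0.135% of all peaks), the Rab30 peak 18902 bp after its start (log2 fold 2.04, adjusted p = 0.0431).

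The second-phase libraries stood apart within both groups. Gbp2, an interferon-induced GTPase gene, had mean levels over 4 peaks of 5.29, 7.38, 4.73 and 7.63 in the second phase, against 5.16, 5.13, 4.62 and 5.39 in the rest phase. Cxcl10, an interferon-induced chemokine gene, had 6.08, 8.28, 6.15 and 8.57 in the second phase, against 5.83, 5.99, 5.87 and 6.04 in the rest phase. Nos2 had 4.91, 6.57, 4.89 and 7.12 and Irf1 5.53, 7.16, 5.43 and 7.37 in the second phase, with 4.77 to 4.90 and 5.42 to 5.75 in the rest phase. Libraries A2 and B2 were high at all 4 genes, which were chosen after their values were seen, and A1 and B1 were near the rest-phase levels. The reason was not tested.

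The Rab peaks with the largest differences, also chosen after their values were seen, mostly followed the same libraries. Rab22a, an early endosome Rab, had 4.53, 6.40, 4.36 and 6.78 in the second phase at an intronic peak 20290 bp after its start (chr2:173680146-173680545), against 4.22, 3.46, 2.32 and 3.62 in the rest phase (log2 fold 2.15 ± 0.58, limma adjusted p = 0.42). Rab37 at 13703 bp had 6.06, 7.88, 6.67 and 8.17 in the second phase, against 6.16, 5.87, 4.39 and 5.25 in the rest phase (1.72 ± 0.47). Rab32, a phagosome Rab, had 3.20, 5.85, 3.24 and 5.38 at 11211 bp in the second phase, against 2.96, 1.83, 3.77 and 3.47 in the rest phase (1.43 ± 0.63). A2 and B2 were the 2 highest of the 8 libraries at each of these peaks.

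Rab38, in melanosome and lysosome-related traffic, had 4.08, 5.96, 4.50 and 6.28 in the second phase at an intronic peak 38203 bp after its start, and 4.10, 3.49, 3.77 and 3.47 in the rest phase (1.53 ± 0.47). Rab10 had 3.74, 6.05, 5.03 and 6.70 in the second phase 5938 bp before its start, and 3.53, 4.12, 4.25 and 3.62 in the rest phase (1.53 ± 0.54). Rab30 at 18902 bp had 2.66, 2.52, 1.45 and 3.77 in the rest phase, from only 5, 4, 2 and 10 reads. In the second phase it had 3.13, 5.20, 4.91 and 5.69 (2.11 ± 0.58), with B1 close to A2. B1 also lay above every rest-phase library at the Rab22a, Rab37, Rab38 and Rab10 peaks. None of the Rab38, Rab10 and Rab30 differences passed (limma adjusted p = 0.42 each). The largest negative difference was at the Rab4a peak 18910 bp before its start, with 4.67, 4.42, 3.49 and 3.02 in the second phase, against 4.78, 4.70, 5.88 and 5.20 in the rest phase (−1.27 ± 0.41).

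**Figure D4:**
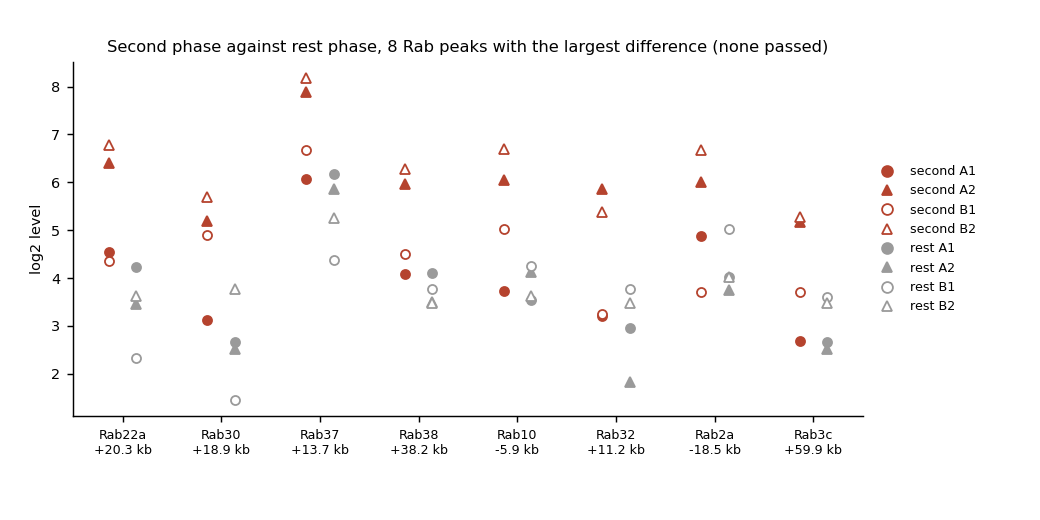
Log2 level per library of the 8 Rab peaks with the largest difference, second phase (red) left of rest phase (grey); circles are libraries 1, triangles libraries 2, filled group A and open group B. Second-phase A2 and B2 are the highest points at all 8 peaks, and none of the 8 passed.

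Between the groups of a phase, calls came from the authors' deposited tables. In the first phase 0 of 342 Rab peaks and 0% of all peaks were called in the authors' deposited table, which also holds 0 Rab peaks and 812 of all peaks at an unadjusted p under 0.05; limma with quantile scaling called 0 as well, with 7 Rab peaks at an unadjusted p under 0.05. The deposited, shrunken Rab folds of that phase all lie within −0.00244 and 0.0035. In the rest phase the authors' deposited table calls 134 Rab peaks higher in A and 0 higher in B. That is 39.2%, against 39.8% of all peaks (39.7% higher in A and 0.0929% in B). In the second phase it calls 105 higher in A and 0 in B (30.7%, against 26.7% of all peaks higher in A and 0.00429% in B). Of the 134 and 105, 57 are shared, 42.5% and 54.3% of each list, against 44.7% and 66.7% of the corresponding lists over all peaks.

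Summarised per gene, the authors' deposited log2 means were higher in A at every gene in the rest and second phases. The median over a gene's peaks was higher for A than for B in 38 of 58 genes in the first phase, and in all 58 in both later phases. Over genes it ranged in the rest phase from 4.24 (Rab9b) to 10.4 (Rab5b) in A and from 2.99 to 9.45 in B, in the authors' deposited table. The rest-phase median of the deposited fold was 1.02 for Rab peaks and 1.04 for all peaks. The second-phase median was 0.95 for Rab peaks and 0.86 for all peaks. The gene counts of 38 and 58 were not made over all genes, so they are not shown to be particular to Rab genes.

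Under quantile scaling of the recovered reads the one-sided split was not seen. That scaling gives every library the same distribution of levels, so a shift shared by most peaks is removed by construction. Total-read scaling likewise removes a difference in total signal. Neither can tell whether A and B differed in total accessibility. In the rest phase limma called 21 Rab peaks higher in A and 21 higher in B (11.9% of all peaks called, 6.39% higher in A and 5.49% in B), and with total-read scaling 45 and 33 (21.4%, with 13.1% and 8.28%). It called 174 and 0 with the authors' scaling (55.3%, with 54.9% and 0.461%). All 21 that limma placed higher in A are among the 134. Both calls use the same reads, so this overlap is not independent support. Fits without 1 of the 4 libraries hold 1 library in a group, so they cannot show whether these calls depend on a single library. In the second phase limma called 0 Rab peaks under each of the 3 scalings, with 2 at an unadjusted p under 0.05 under quantile scaling.

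The 4 largest rest-phase folds in the authors' deposited table kept their direction under quantile scaling. They lie at Rab5c 253 bp before its start (2.89), Rab39 9977 bp after its start (2.67), Rab31 at 32029 bp (2.46) and Rab38 at 47728 bp (2.36). Per library, the Rab5c levels were 6.25 and 5.97 for group A, against 4.25 and 4.29 for group B (limma log2 fold 1.97 ± 0.27, adjusted p = 0.00411). Those of Rab31 were 6.94 and 7.20 for group A, against 5.55 and 5.57 for group B (1.53 ± 0.20, adjusted p = 0.00355). Rab39 had 6.29 and 6.08 in A, against 4.39 and 4.38 in B. Rab38 had 5.38 and 5.60 in A, against 4.52 and 4.01 in B. A and B libraries did not overlap at any of the 4. These peaks were picked for a large fold in the same reads. Their direction, adjusted p-values and lack of overlap are therefore not independent support.

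The 4 largest second-phase folds in the authors' deposited table did not pass with limma. They are at Rab4a 11685 bp before its start (2.23), Rab31 at 48014 bp (1.92), the Rab42 start (1.88) and Rab7b 8682 bp before its start (1.84). Rab4a there had levels of 6.04 and 5.08 in A, against 4.20 and 4.04 in B, without overlap (limma 1.45 ± 0.51, adjusted p = 1). Rab42 had 6.81 and 6.03 in A, against 6.29 and 5.32 in B, which overlap. Rab7b at its peak had 9.24 and 7.14 in A, against 8.19 and 6.93 in B, so that the libraries overlap (limma 0.48 ± 0.62). Rab31 had 7.32 and 6.16 in A, against 7.36 and 5.10 in B.

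**Figure D5:**
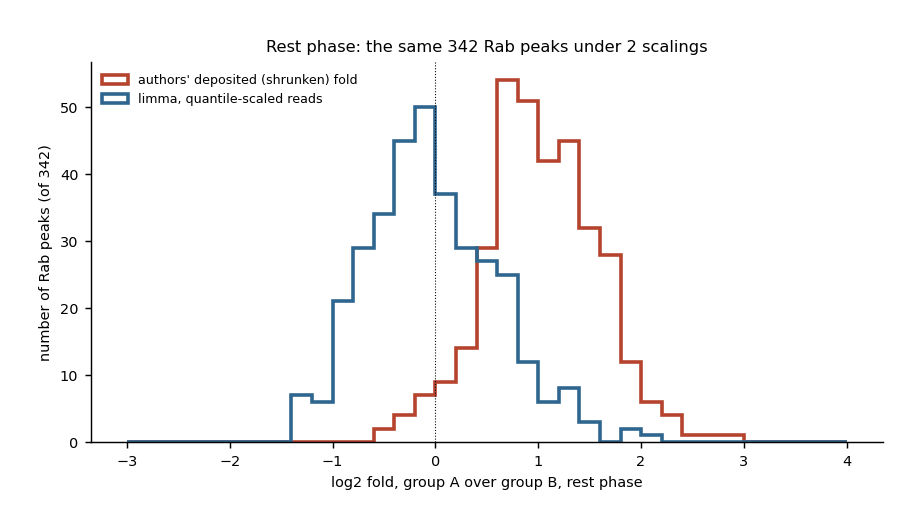
Number of the 342 Rab peaks by log2 fold of group A over group B in the rest phase, from the authors' deposited (shrunken) fold in red and limma on quantile-scaled reads in blue. The deposited folds centre near their median of 1.02 and the limma folds near −0.07. Quantile scaling itself removes a shift shared by most peaks.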

How the data were processed

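For every phase the authors deposited a table over an identical set of 139999 annotated peaks. Per the submitters' processing notes the files use mm10, and DiffBind 3.14.0, DESeq, DESeq2, HOMER 5.1, MACS2, Bowtie2 2.5.4, bedtools 2.28.0, deepTools 3.2.1 and Picard 3.2.0 appear there, with no roles given. Each deposited row holds a log2 mean of normalized reads for A and for B, their log2 fold change (shrunken), its p-value and its adjusted p-value. The role of each column was read from the values, since the headers do not name it. The deposited fold was turned to A over B in every table.

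Each deposited mean is a sum of whole reads of 2 libraries, each read worth a fixed amount. Every value above the listing floor of 0 was solved by exactly 1 pair of whole reads, and missed by at most 3.47e-09 of its size. Reads of 12 libraries thus became available at 139557 peaks; the other 442 peaks, none of a Rab gene, were left out of the fits. The recovery found 100% of the pairs in 3 simulated columns of 20000 peaks each.

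Phases were compared with limma 3.58.1 in R 4.3.3, with an empirical Bayes trend, on log2 of quantile-scaled reads per 10000000 reads in peaks plus 1, with Benjamini-Hochberg adjustment over all 139557 peaks and a threshold of 0.05. Libraries A1 and A2 of the first phase varied 1.13 times as much as counting noise alone gives at peaks with at least 20 reads, against 2.07 to 15.7 times in the other 5 pairs, and were pooled as 1 sample between phases. In simulated reads with 200 of 139557 peaks changed, the rest over first comparison recovered 6.5% of 2-fold and 98% of 4-fold changes. The second over rest comparison recovered 17.5% of 2-fold and 100% of 4-fold changes. All simulated libraries had the same dispersion, 0.05, and none held the split of second-phase A1 and B1 from A2 and B2. Real second-phase pairs varied 15.7 times (A) and 7.85 times (B) as much as counting noise. The simulated shares therefore do not give the power of the real second over rest comparison. Reads that share a PCR origin are not independent molecules.

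The Rab genes, role groups and other lists were chosen with earlier results of these data known. Named peaks followed a rule. For each comparison of phases it takes the 8 genes with the largest rise and the 8 with the largest fall at a called peak. For each deposited table it takes the 4 genes with the largest deposited fold among called peaks. It also takes the 5 highest and 5 lowest start peaks, and the start peaks of genes known in macrophage vesicle traffic. Of that last set Rab3d was listed with no peak under its symbol. Alternatives were other scalings, pseudocount 5, a mean of at least 10 reads, an adjusted p under 0.01, 1 group alone, reads summed per gene, and leaving out each library. Where several peaks overlie annotated starts, the start peak is the one whose centre is nearest to its start. Motifs were searched in RefSeq promoter windows (GRCm38.p6) that overlap the start peak.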

Additional observations from a re-analysis of the deposited data

Results flagged for a closer look

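In 106 groups of 4 libraries of 1 phase, 4 Rab peaks held a library far from the other 3 by Dixon's criterion on the gap over the range; chance flags about 1 in 20 groups. At the Rab8a peak 7873 bp after the start, second-phase A1 had a level of 7.27, against 6.86 to 6.93 in the others. At the Rab9b peak 26976 bp before the start, second-phase B2 had 2.32, against 3.24 to 3.41. At the Rab10 start, rest-phase A1 had 9.47, against 9.68 in the others. At the Rab34 start, second-phase B2 had 5.03, against 5.46 to 5.53.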

How the results depend on the processing

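Between the rest and first phases 127 Rab peaks were called with limma. The count was 93 with the authors' scaling, 147 with total-read scaling, 91 at an adjusted p under 0.01 and 105 to 141 when 1 library was left out. With reads summed per gene 32 of 58 genes passed, 10 higher and 22 lower (17.2% and 37.9%, against 25.5% and 26.6% of all genes), which counts genes and not peaks. Second over rest gave 0 throughout, except for 1 Rab peak with the authors' scaling. In the rest phase A over B, the deposited 134 became 42 with limma and quantile scaling and 78 with total-read scaling. The count was 12 when a log2 fold beyond 1 after centring on all peaks was also required, and 45 at an adjusted p under 0.01. In the second phase the deposited 105 became 0 with limma under each of the 3 scalings. It was 3 with the same centred fold required, and 0 at an adjusted p under 0.01. Within a phase, leaving out a library leaves 1 library in a group, so those counts are not given. Among named peaks under these alternatives, 223 rest over first values had the same direction and call and 1 (Rab8a, authors' scaling) no longer passed. For second over rest, 1 value (Rab30, authors' scaling) newly passed. The cause of these shifts was not tested. No paired analysis was possible because the recovered libraries are not tied to the labels' replicate numbers.

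Reads in peaks ranged over 3832347 to 18617444 per library. In simulated reads 6.5% of 2-fold changes were recovered between the rest and first phases, and 17.5% between the second and rest phases, so a 2-fold change that was not called is not shown to be absent. The simulation did not hold the split among second-phase libraries, so larger changes that were not called there are not shown to be absent either.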
